A study of Homo sapiens with 12 samples.

Results

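Transcripts of 10 condensin and cohesin subunits were followed in 2 diffuse large B-cell lymphoma lines treated with selinexor, an inhibitor of the nuclear export receptor XPO1. The genes were taken from the deposited table by symbol: SMC2, SMC4, NCAPD2, NCAPG and NCAPH of condensin, and SMC1A, SMC3, RAD21, STAG1 and STAG2 of cohesin. All 10 were found among 58302 genes, and all 10 passed the filter on low counts that left 16474 genes for testing. Gene expression had been measured by RNA sequencing in 12 libraries. They comprise OCI-LY3 with selinexor, OCI-LY3 untreated, SU-DHL6 with selinexor and SU-DHL6 untreated, with 3 libraries in each group. OCI-LY3 is a line of the activated B-cell-like subtype and SU-DHL6 one of the germinal centre B-cell-like subtype. Each subtype is thus represented by 1 line, and the untreated cells received no selinexor. The protocols name doses of 300 and 100 nM and times of 24 and 48 h, and the labels do not say which libraries or which line received which, so the lines may differ in dose and time too. The design text calls the libraries biological triplicates without describing the cultures, so p-values measure the spread between these libraries.

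Both complexes are built on a pair of SMC proteins, long coiled-coil ATPases whose ends are joined by a kleisin subunit to form a ring that can hold DNA. Condensin compacts chromosomes for mitosis, when its condensin I form joins SMC2 and SMC4 to the kleisin NCAPH and the HEAT-repeat subunits NCAPD2 and NCAPG. Cohesin joins SMC1A and SMC3 through the kleisin RAD21 and carries STAG1 or STAG2. It holds sister chromatids together from replication to anaphase and extrudes chromatin loops in interphase, which in B cells shape the immunoglobulin loci and the gene regulation of the germinal centre.

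On GRCh38, as the table gives them, the condensin genes lie at chr9:104094260-104141417 (SMC2), chr3:160399274-160434962 (SMC4), chr12:6493356-6531955 (NCAPD2), chr4:17810902-17844862 (NCAPG) and chr2:96335787-96373845 (NCAPH), all on the plus strand. Of the cohesin genes, SMC3 (chr10:110567691-110604636) and STAG2 (chrX:123960212-124422664) lie on the plus strand. SMC1A (chrX:53374149-53422728), RAD21 (chr8:116845935-116874866) and STAG1 (chr3:136336233-136752403) lie on the minus strand. All are protein-coding, and each value below is a gene's total.

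Library totals ran from 14210200 to 16405842 counts. Summed B-cell markers were between 2895 and 3124 CPM (counts relative to library totals scaled by trimmed mean of M values factors) in treated OCI-LY3, against 1940 to 2010 CPM in untreated OCI-LY3. In SU-DHL6 they were between 2822 and 3025 CPM with selinexor, against 3050 to 3662 CPM without. Summed T-cell markers were between 3.15 and 4.89 CPM in treated OCI-LY3, against 0.0701 to 0.626 CPM in untreated OCI-LY3, and at most 0.649 CPM in any SU-DHL6 library, with CD3G and CD2 at 0 throughout. Summed epithelial markers reached at most 0.491 CPM in any library. Summed myeloid markers were between 19.2 and 21.5 CPM in treated OCI-LY3, against 29.2 to 32.0 CPM in untreated OCI-LY3, with CD14, LYZ and FCGR3A at 0. Of the myeloid markers 2 were tested. In OCI-LY3, by the rule given below, 1 was called higher and 1 lower with selinexor. Each direction held 22.2% of all tested genes. The part of these marker levels in the results was not tested. One library stood apart in base composition. The mean GC content of genes, weighted by their counts, was 49.99% to 50.4% in treated SU-DHL6 libraries, against 50.7% in the first untreated SU-DHL6 library and 51.6% in each of the other two. In OCI-LY3 it was 51.7% to 52.2% in treated and 51.7% to 52.0% in untreated libraries. GC content thus moved with treatment in SU-DHL6, and 9 of the 10 subunit genes lie below the median GC content of tested genes (49.9%), SMC2 at 37.8%, NCAPG at 38.6% and SMC4 at 38.7%. Values from a fit that corrects each library for GC content and gene length by offsets are therefore given beside many results that they change. Such values are not given for every result.

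Promoters of SMC4, NCAPG and NCAPH are shown because SMC4 was called in opposite directions in the lines, while the other two fell in both. The windows reach from 250 bases before to 50 bases after a transcription start in RefSeq on GRCh38.p14, all on the plus strand: chr3:160399400-160399699 for SMC4, chr4:17810729-17811028 for NCAPG and chr2:96335516-96335815 for NCAPH. Capitals mark matches on either strand to a cell cycle homology region (CHR, which reads TTTGAA, with TTCGAA also searched), a CCAAT box (CCAAT) or an E2F core. The E2F core was searched as TTCCCGC, then as TTCGCGC, then as TTGCCGC, then as TTGGCGC.
SMC4: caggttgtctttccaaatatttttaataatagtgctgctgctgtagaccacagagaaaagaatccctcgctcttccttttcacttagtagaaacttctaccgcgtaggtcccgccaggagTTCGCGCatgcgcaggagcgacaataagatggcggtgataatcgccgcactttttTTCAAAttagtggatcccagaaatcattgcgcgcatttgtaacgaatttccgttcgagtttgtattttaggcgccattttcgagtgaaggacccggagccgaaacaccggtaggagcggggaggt
NCAPG: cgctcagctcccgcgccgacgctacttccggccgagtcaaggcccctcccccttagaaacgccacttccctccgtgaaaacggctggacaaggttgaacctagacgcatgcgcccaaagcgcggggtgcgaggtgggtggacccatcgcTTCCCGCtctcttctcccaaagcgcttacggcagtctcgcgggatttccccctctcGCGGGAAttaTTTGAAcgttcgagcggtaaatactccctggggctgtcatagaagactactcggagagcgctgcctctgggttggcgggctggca
NCAPH: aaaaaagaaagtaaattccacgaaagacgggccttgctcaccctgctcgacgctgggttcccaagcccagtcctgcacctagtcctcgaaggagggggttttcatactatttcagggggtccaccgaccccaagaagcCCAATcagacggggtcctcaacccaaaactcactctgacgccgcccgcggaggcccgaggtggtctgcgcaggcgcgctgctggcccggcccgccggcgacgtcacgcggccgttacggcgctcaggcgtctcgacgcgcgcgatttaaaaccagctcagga
The SMC4 window shown holds an E2F core and a CHR match, the NCAPG window 2 E2F cores and a CHR match, and the NCAPH window a CCAAT box only. Another SMC4 window, chr3:160400309-160400608, holds no match and is not shown. The RefSeq table held 14 such windows for 9 of the subunit genes. A CHR match was in 5 of the 14, against 16.35% of all 35116 windows, a CCAAT box in 5, against 34.61%, and an E2F core in 5, against 12.97%. Among the others, NCAPD2 had 4 CCAAT boxes and a CHR match, SMC2 and SMC3 a CHR match each, and STAG1 2 CCAAT boxes and an E2F core. SMC1A had an E2F core. STAG2 had a CCAAT box in one window, and 2 CCAAT boxes and an E2F core in another. These matches are letters in a window and were not tested as sites.

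In OCI-LY3, transcripts of both condensin SMC proteins, all 3 condensin I subunits and the 3 ring subunits of cohesin were lower with selinexor. A gene was called where the adjusted p of edgeR's quasi-likelihood test, with Benjamini-Hochberg adjustment over all tested genes, was under 0.05. By this rule 8 of the 10 subunits fell and 0 rose, where 44.4% of all tested genes were called, 22.2% lower and 22.2% higher; STAG1 and STAG2 were not called. The median log2 fold change of the 10 was -1.25, against 0.00 over all genes. In SU-DHL6, 5 subunits fell, 1 rose and 4 were not called, with a median of -0.42 against 0.00 over all genes and with 43.2% of tested genes called, 22.8% lower and 20.4% higher. The 5 that fell in SU-DHL6 had also fallen in OCI-LY3: NCAPD2, NCAPG, NCAPH, SMC1A and RAD21. Fewer cells in a given state and less RNA per cell cannot be told apart in bulk RNA.

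**Figure D1:**
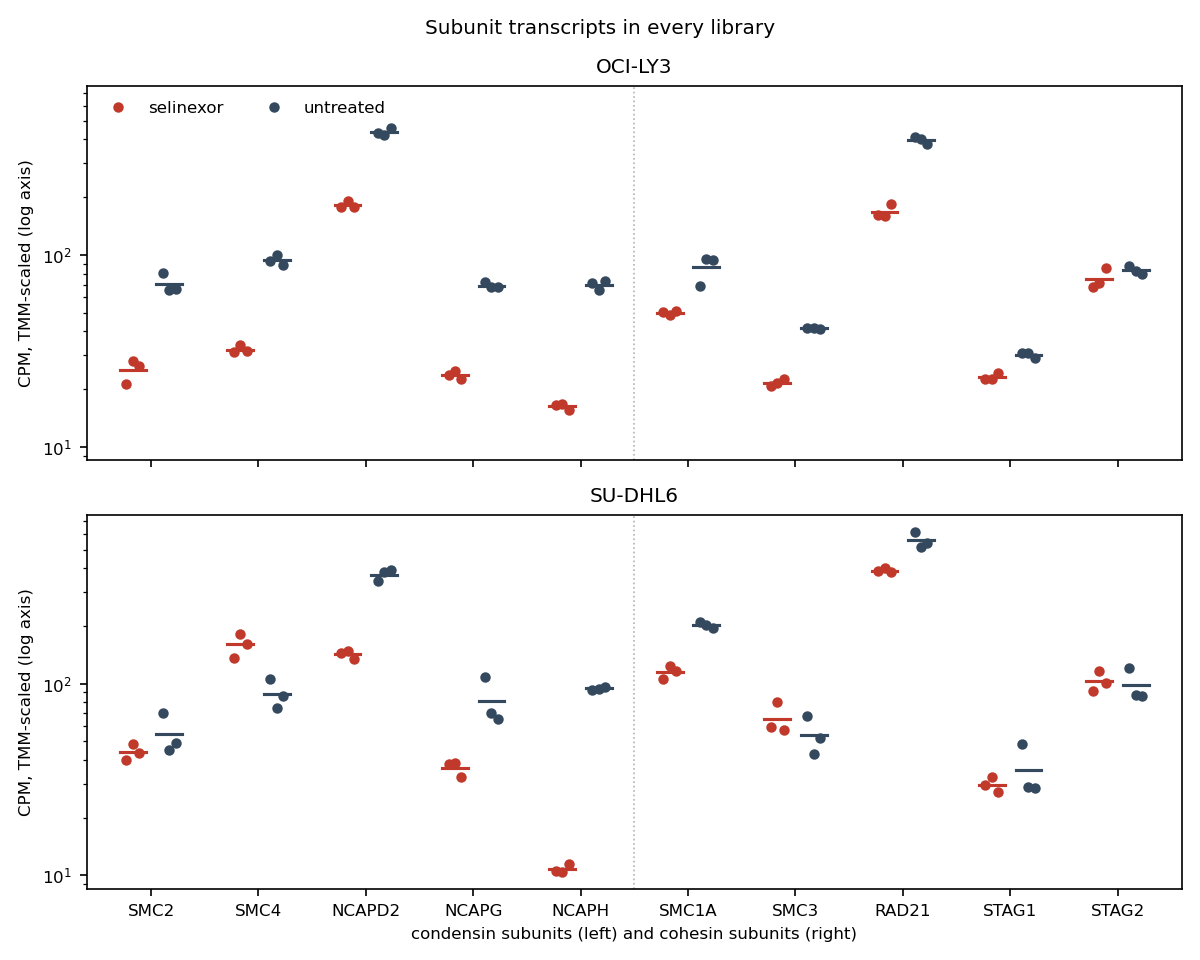
Transcript levels of the 10 subunits in every library, in CPM on a log axis, for OCI-LY3 (top) and SU-DHL6 (bottom); points are libraries, bars are means of 3, and each pair has selinexor left of untreated. NCAPH lies at 10.4 to 11.4 CPM in treated SU-DHL6 and 93.1 to 96.0 CPM in untreated SU-DHL6, while SMC4 lies higher in treated than in untreated SU-DHL6 and lower in treated than in untreated OCI-LY3.

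NCAPH, the kleisin that closes the condensin I ring, fell furthest of the 10 in both lines. Its level was 16.5, 16.7 and 15.5 CPM in treated OCI-LY3, against 71.2, 65.8 and 72.9 CPM in untreated OCI-LY3. In SU-DHL6 it was 10.5, 10.4 and 11.4 CPM with selinexor, against 93.1, 94.0 and 96.0 CPM without. The groups did not overlap in either line, and the replicates of each group lay close together. The log2 fold change was -2.11 ± 0.10 in OCI-LY3 (SE; adjusted p = 1.66e-09, edgeR) and -3.13 ± 0.10 in SU-DHL6 (adjusted p = 3.52e-11), the SE being the log2 fold change divided by the root of the test's F. In SU-DHL6, 0.795% of tested genes had a lower log2 fold change than NCAPH.

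NCAPD2, a HEAT-repeat subunit of condensin I, fell by a similar amount in both lines. It had 178, 191 and 177 CPM in treated OCI-LY3, against 432, 424 and 457 CPM in untreated OCI-LY3, and 145, 149 and 134 CPM in treated SU-DHL6, against 342, 380 and 390 CPM in untreated SU-DHL6. No treated library reached the level of an untreated one. The log2 fold changes were -1.27 ± 0.09 in OCI-LY3 (edgeR adjusted p = 7.34e-08) and -1.38 ± 0.09 in SU-DHL6 (adjusted p = 3.23e-08). NCAPD2 shares 7.49% of its exon bases with MRPL51, a gene at 92.7 CPM in treated and 68.3 CPM in untreated SU-DHL6. MRPL51 averaged 73.4 CPM in treated and 74.6 CPM in untreated OCI-LY3. The part of shared reads in the NCAPD2 values was not tested.

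NCAPG, the other HEAT-repeat subunit of condensin I, also fell in both lines. Its level was 23.7, 24.8 and 22.5 CPM in treated OCI-LY3, against 71.9, 67.9 and 67.7 CPM in untreated OCI-LY3, a log2 fold change of -1.55 ± 0.16 (edgeR adjusted p = 3.62e-06). In SU-DHL6 it was 38.3, 38.4 and 32.6 CPM with selinexor, against 108, 70.2 and 65.2 CPM without, a log2 fold change of -1.15 ± 0.16 (edgeR adjusted p = 4.87e-05). The first untreated SU-DHL6 library was the high one of its group, and without it the SU-DHL6 value was -0.90, still called. NCAPG shares 33.1% of its exon bases with LCORL on the other strand, a gene at 18.6 CPM in treated and 11.3 CPM in untreated SU-DHL6. The strand setting of the counting is not given in the sources used here, so the part of shared reads in these values was not tested.

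SMC4, which with SMC2 forms the ATPase core of every condensin, was the only one of the 10 called in opposite directions in the lines. It had 31.3, 33.7 and 31.4 CPM in treated OCI-LY3, against 93.2, 99.4 and 88.4 CPM in untreated OCI-LY3. In SU-DHL6 it had 136, 182 and 162 CPM with selinexor, against 105, 74.5 and 85.7 CPM without. The treated libraries were all below the untreated ones in OCI-LY3 and all above them in SU-DHL6. SMC4 fell by 1.54 ± 0.13 on the log2 scale in OCI-LY3 (edgeR adjusted p = 6.28e-07) and rose by 0.86 ± 0.13 in SU-DHL6 (adjusted p = 0.000115). With offsets for GC content and length the SU-DHL6 rise was 0.51 and still called, and leaving out each library in turn gave 0.74 to 0.99.

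The SMC4 locus holds other genes whose exons overlap it. TRIM59 shares 18.5% of the exon bases of SMC4 and IFT80 shares 7.18%. IFT80, an intraflagellar transport gene, averaged 62.6 CPM in treated SU-DHL6, against 24.9 CPM in untreated SU-DHL6, and 18.8 CPM in treated OCI-LY3, against 14.7 CPM in untreated OCI-LY3. TRIM59, which encodes a tripartite motif protein, averaged 52.3 CPM in treated and 46.9 CPM in untreated SU-DHL6, and ran from 2.02 to 24.5 CPM in treated and from 32.1 to 47.1 CPM in untreated OCI-LY3. IFT80 was thus high in the same group as SMC4, and what reads assigned between these genes add to the SMC4 value was not tested.

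SMC2, the partner of SMC4, fell in OCI-LY3 and was not called in SU-DHL6. It had 21.3, 27.9 and 26.2 CPM in treated OCI-LY3, against 80.0, 65.6 and 66.2 CPM in untreated OCI-LY3, a log2 fold change of -1.49 ± 0.17 (edgeR adjusted p = 7.15e-06). In SU-DHL6 it had 39.9, 48.5 and 43.4 CPM with selinexor, against 70.1, 44.9 and 49.1 CPM without, a log2 fold change of -0.32 ± 0.16 (edgeR adjusted p = 0.134). The SU-DHL6 groups overlapped, and the first untreated library was again the high one. The SU-DHL6 value depends on the setting: it was -0.10 without that library, -0.06 with total counts, and -0.89 and called with offsets for GC content and length.

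Among the cohesin ring subunits, RAD21, the kleisin that separase cuts at anaphase, fell in both lines. It had 161, 159 and 184 CPM in treated OCI-LY3, against 410, 401 and 377 CPM in untreated OCI-LY3, and 384, 401 and 380 CPM in treated SU-DHL6, against 619, 518 and 542 CPM in untreated SU-DHL6. The groups did not overlap in either line. The log2 fold change was -1.24 ± 0.10 in OCI-LY3 (edgeR adjusted p = 2.06e-07) and -0.53 ± 0.09 in SU-DHL6 (adjusted p = 0.000452). When libraries were scaled by total counts alone, the median of all genes moved to 0.27 in SU-DHL6 and to -0.09 in OCI-LY3. RAD21 then stood at -0.26 in SU-DHL6, still called. RAD21 shares 8.37% of its exon bases with UTP23, a ribosome biogenesis gene at 45.9 CPM in treated and 24.5 CPM in untreated SU-DHL6.

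SMC1A, one of the ATPases of the mitotic cohesin ring, fell by about the same amount in both lines. It had 50.3, 48.7 and 51.1 CPM in treated OCI-LY3, against 68.8, 95.0 and 94.4 CPM in untreated OCI-LY3, with the first untreated library the lowest of its group. In SU-DHL6 it had 106, 123 and 116 CPM with selinexor, against 209, 203 and 196 CPM without. The groups did not overlap, and the log2 fold changes were -0.78 ± 0.12 in OCI-LY3 (edgeR adjusted p = 0.000102) and -0.81 ± 0.12 in SU-DHL6 (adjusted p = 6.85e-05).

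SMC3, the ATPase whose acetylation locks cohesin on DNA, fell in OCI-LY3 and was not called in SU-DHL6. It had 20.6, 21.4 and 22.6 CPM in treated OCI-LY3, against 41.5, 41.7 and 41.2 CPM in untreated OCI-LY3, a log2 fold change of -0.94 ± 0.16 (edgeR adjusted p = 0.000311). In SU-DHL6 it had 59.3, 80.05 and 57.3 CPM with selinexor, against 67.8, 43.1 and 51.9 CPM without, a log2 fold change of 0.27 ± 0.16 (edgeR adjusted p = 0.176) with groups that overlapped. The sign in SU-DHL6 depends on the setting: 0.46 and called (edgeR adjusted p = 0.0179) without the first untreated SU-DHL6 library, 0.53 and called with total counts, and -0.10 with offsets for GC content and length.

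STAG1 and STAG2, the alternative HEAT-repeat subunits through which cohesin meets CTCF and other partners, were not called in either line. STAG2 had 68.2, 71.1 and 85.5 CPM in treated OCI-LY3, against 87.7, 82.7 and 79.8 CPM in untreated OCI-LY3, and 91.2, 117 and 101 CPM in treated SU-DHL6, against 121, 86.8 and 86.4 CPM in untreated SU-DHL6. Its groups overlapped in both lines, with log2 fold changes of -0.16 ± 0.14 in OCI-LY3 (edgeR adjusted p = 0.399) and 0.07 ± 0.14 in SU-DHL6 (adjusted p = 0.707). STAG1 had 22.6, 22.6 and 24.3 CPM in treated OCI-LY3, against 30.7, 30.8 and 29.1 CPM in untreated OCI-LY3, and 29.5, 32.7 and 27.2 CPM in treated SU-DHL6, against 48.2, 28.99 and 28.6 CPM in untreated SU-DHL6. The OCI-LY3 groups of STAG1 did not overlap, yet its log2 fold change of -0.38 ± 0.17 missed the threshold (edgeR adjusted p = 0.0840), as did -0.24 ± 0.17 in SU-DHL6 (adjusted p = 0.265).

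The uncalled STAG values do not show that these transcripts stayed level. With total counts STAG1 was called lower in OCI-LY3, at -0.50, whereas offsets for GC content and length gave -0.15 for STAG1 and 0.04 for STAG2 there, neither called. Without the first untreated SU-DHL6 library the OCI-LY3 value of STAG1, -0.38, was called (edgeR adjusted p = 0.00557), and its SU-DHL6 value turned to 0.04. With offsets for GC content and length, SU-DHL6 gave -0.67 for STAG1, called, and -0.23 for STAG2 (edgeR adjusted p = 0.0320). Of the 10 subunits, 8 were then called lower in SU-DHL6, where 3465 of 16474 tested genes were. STAG1 shares 21.2% of its exon bases with PCCB, a propionyl-CoA carboxylase gene at 112 CPM in treated and 157 CPM in untreated OCI-LY3, and at 45.5 CPM in treated and 74.9 CPM in untreated SU-DHL6. In all, treated and untreated libraries did not overlap for 9 subunits in OCI-LY3, where this held for 57.5% of tested genes, and for 6 in SU-DHL6, where it held for 51.1%.

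**Figure D2:**
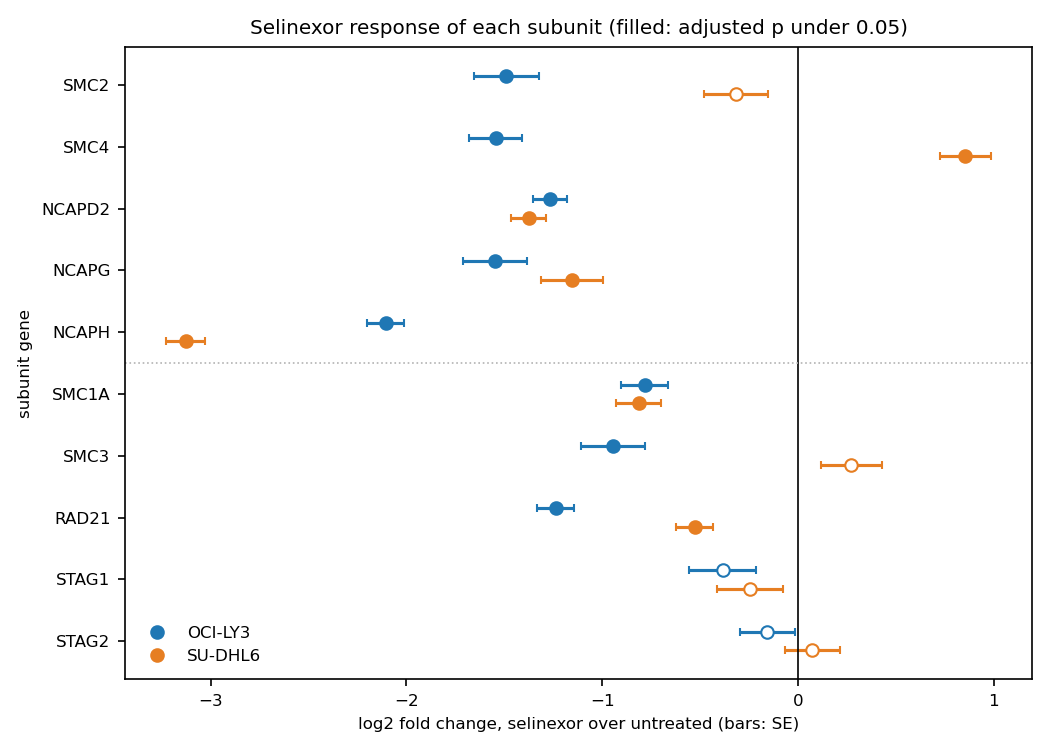
Log2 fold change of each subunit, selinexor over untreated, in OCI-LY3 and SU-DHL6; bars are SE from the edgeR fit over all 12 libraries and filled points have an adjusted p under 0.05. The points of NCAPD2 and SMC1A nearly coincide, those of SMC4 lie on opposite sides of 0, and NCAPH lies furthest left in both lines.

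The difference of the responses, SU-DHL6 minus OCI-LY3, was tested in the same fit. It was called for 5 of the 10 subunits, 4 higher and 1 lower, where 36.9% of tested genes were called, 17% higher and 19.9% lower. SMC4 differed by 2.40 ± 0.19 on the log2 scale (edgeR adjusted p = 6.39e-07), SMC3 by 1.22 ± 0.23 (adjusted p = 0.000787), SMC2 by 1.17 ± 0.23 (adjusted p = 0.00127) and RAD21 by 0.71 ± 0.13 (adjusted p = 0.000854). NCAPH differed by -1.02 ± 0.13 (edgeR adjusted p = 4.53e-05), its fall being deeper in SU-DHL6.

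For NCAPD2 the difference was -0.11 ± 0.12 (edgeR adjusted p = 0.526) and for SMC1A -0.03 ± 0.16 (adjusted p = 0.937). NCAPG, STAG1 and STAG2 differed by 0.39 ± 0.22, 0.14 ± 0.24 and 0.23 ± 0.20, none of them called. The condensin I subunits NCAPD2 and NCAPG were thus not shown to respond differently in the lines, whereas the kleisin NCAPH and the SMC pair of condensin were. Offsets for GC content and length reduced the differences to 1.83 for SMC4, 0.63 for SMC3, 0.47 for RAD21 and 0.33 for SMC2, the last no longer called (edgeR adjusted p = 0.0614), and gave a called -0.52 for STAG1. The other uncalled differences stood at 0.16 for NCAPD2, -0.25 for NCAPG, -0.12 for SMC1A and -0.26 for STAG2 with these offsets, still not called. Without the first untreated SU-DHL6 library the differences of NCAPG, 0.65, and STAG1, 0.42, were called. Total counts gave -0.64 for NCAPH and 1.09 for RAD21, both still called, and called differences of 0.76 for NCAPG and 0.60 for STAG2.

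The untreated lines differed most in SMC1A. Of the 10 subunits, 1 was higher and 4 were lower in untreated OCI-LY3 than in untreated SU-DHL6, where 67.3% of tested genes were called, 33.6% higher and 33.7% lower. The libraries of the lines did not overlap for these 5, and for 70.9% of tested genes. SMC1A averaged 86.1 ± 14.97 CPM in untreated OCI-LY3 and 203 ± 6.70 CPM in untreated SU-DHL6 (SD, n = 3 libraries each), a log2 difference of -1.24 ± 0.12 (edgeR adjusted p = 3.13e-07). RAD21 differed by -0.50 ± 0.09 (edgeR adjusted p = 0.000288), NCAPH by -0.43 ± 0.09 (adjusted p = 0.000649), SMC3 by -0.39 ± 0.16 (adjusted p = 0.0425) and NCAPD2 by 0.24 ± 0.09 (adjusted p = 0.0226). SMC4, at 93.7 ± 5.49 CPM in untreated OCI-LY3 and 88.4 ± 15.5 CPM in untreated SU-DHL6, differed by 0.08 ± 0.13 (edgeR adjusted p = 0.586).

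The smaller baseline calls lay near the threshold. The SMC3 call was lost without any 1 of 8 libraries, the 6 of OCI-LY3 and the first and the third untreated of SU-DHL6, with values between -0.40 and -0.20, and with the replicate number as a block (-0.38, edgeR adjusted p = 0.0662). The NCAPD2 call was lost without the third untreated OCI-LY3 library (0.21) or the first untreated SU-DHL6 library (0.18) and with total counts (0.17). SMC2, at 0.37 ± 0.16 (edgeR adjusted p = 0.0579), became called without that SU-DHL6 library at 0.58, without the first or second treated OCI-LY3 library at 0.39, and with offsets for GC content and length at 0.34.

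Between the treated lines, 7 subunits were lower and 2 higher in OCI-LY3 than in SU-DHL6, where 72% of tested genes were called, 35.8% lower and 36.2% higher. The libraries of the lines did not overlap for any of the 10, and for 76% of tested genes. SMC4 averaged 32.1 ± 1.39 CPM in treated OCI-LY3 and 160 ± 22.7 CPM in treated SU-DHL6, a log2 difference of -2.32 ± 0.14 (edgeR adjusted p = 1.49e-09). SMC3 differed by -1.61 ± 0.16, RAD21 by -1.21 ± 0.10 and SMC1A by -1.21 ± 0.12, all called. NCAPH and NCAPD2 were the 2 that were higher in treated OCI-LY3, by 0.59 ± 0.10 and 0.35 ± 0.09. With offsets for GC content and length only 4 of the 7 remained lower, since SMC2 went to 0.01, NCAPG to 0.06 and STAG2 to 0.07, while SMC3 stood at -0.99 and NCAPD2 at 0.18, both still called. STAG1, at -0.36 and not called without these offsets, stood at 0.30 and was called with them. With total counts neither NCAPH (0.14) nor NCAPD2 (-0.10) was called. Without the first treated OCI-LY3 library the STAG2 call was lost (-0.37, edgeR adjusted p = 0.0531).

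Levels between genes were compared per length, on the deposited FPKM values (fragment counts normalised for gene length and depth) within a group. RAD21 and NCAPD2 had the highest means in every group but treated SU-DHL6, where SMC3, at 18.0 ± 3.45 FPKM, lay beside NCAPD2, at 17.1 ± 0.67 FPKM. NCAPD2 averaged 15.9 ± 0.77 FPKM and RAD21 14.9 ± 1.34 FPKM in treated OCI-LY3, and 41.5 ± 1.61 and 38.0 ± 1.91 FPKM in untreated OCI-LY3 (SD, n = 3). In SU-DHL6, RAD21 averaged 47.0 ± 1.63 FPKM with selinexor and 56.5 ± 7.36 FPKM without. NCAPH ranked 10 of 10 in treated SU-DHL6 at 2.18 ± 0.17 FPKM and 4 of 10 in untreated SU-DHL6 at 15.9 ± 0.38 FPKM. SMC4 ranked 6 in treated SU-DHL6 at 10.5 ± 1.64 FPKM and 9 in untreated SU-DHL6 at 4.85 ± 1.02 FPKM. Several neighbours in these orders overlapped, such as SMC3 and NCAPD2 in treated SU-DHL6, and NCAPG and SMC3 in untreated SU-DHL6.

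Ratios of subunits within a library do not depend on the scaling between libraries, but they were not corrected for GC content. Of the 7 ratios set for each line, an exact permutation test (two-sided) over 3 against 3 libraries cannot go below p = 0.10, and all ratios whose groups did not overlap had that value, 0.156 after Benjamini-Hochberg adjustment over the 14 tests. No ratio therefore passed a threshold, and the sizes are given as measured. The SMC2 to SMC4 ratio was 0.514, 0.469 and 0.473 in treated SU-DHL6, against 1.17, 1.06 and 1.01 in untreated SU-DHL6, a log2 difference of -1.15. These genes are close in GC content. In OCI-LY3 the same ratio was 1.196 to 1.47 in treated and 1.16 to 1.51 in untreated libraries, a log2 difference of 0.05 with groups that overlapped.

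The SMC1A to SMC3 ratio was 0.694, 0.599 and 0.788 in treated SU-DHL6, against 1.198, 1.83 and 1.47 in untreated SU-DHL6. These genes differ in GC content, SMC1A at 49.7% and SMC3 at 40.4%, and the part of this in the ratio was not tested. RAD21 to SMC3 differed by -0.80 on the log2 scale in SU-DHL6 and by -0.29 in OCI-LY3, without overlap in either. STAG2 to STAG1 ran from 3.66 to 4.27 in treated OCI-LY3, against 3.26 to 3.46 in untreated OCI-LY3, and from 3.75 to 4.51 in treated SU-DHL6, against 3.03 to 3.65 in untreated SU-DHL6. The groups did not overlap in either line. STAG1 shares 21.2% of its exon bases with PCCB, whose mean was lower with selinexor in both lines. The part of shared reads in this ratio was not tested.

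Condensin I was set beside its condensin II counterparts, the subunits of the form that stays in the nucleus through interphase. NCAPH to NCAPH2 was 0.351 to 0.430 in treated OCI-LY3, against 0.976 to 1.07 in untreated OCI-LY3, and 0.314 to 0.327 in treated SU-DHL6, against 0.607 to 0.719 in untreated SU-DHL6. The log2 differences were -1.43 in OCI-LY3 and -1.04 in SU-DHL6. NCAPG to NCAPG2 was 1.87 to 2.503 in treated SU-DHL6, against 1.09 to 1.42 in untreated SU-DHL6, while its groups overlapped in OCI-LY3. NCAPD2 to NCAPD3 overlapped in both lines. A further ratio, NCAPH to SMC4, was chosen after its values were seen and has no test: it was 0.176 to 0.237 in treated SU-DHL6, against 2.72 to 3.88 in untreated SU-DHL6, and 1.52 to 1.62 in treated OCI-LY3, against 2.04 to 2.53 in untreated OCI-LY3. GC content was 49.3% for NCAPH, 61.4% for NCAPH2, 38.6% for NCAPG, 45.8% for NCAPG2 and 38.7% for SMC4. The part of these differences in the SU-DHL6 ratios was not tested.

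**Figure D3:**
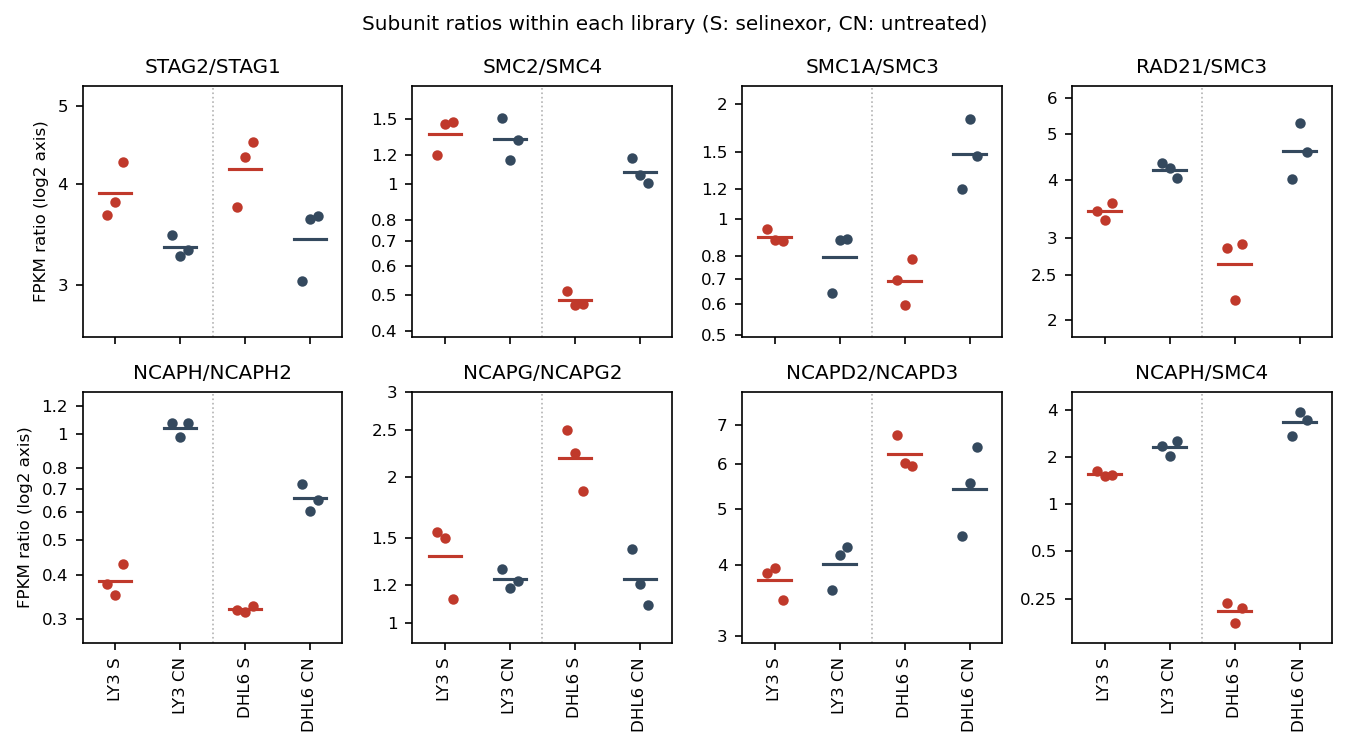
Ratio of deposited FPKM values of 2 subunits within each library, on log2 axes, with selinexor (S) left of untreated (CN) for OCI-LY3 (LY3) and SU-DHL6 (DHL6); points are libraries and bars are geometric means of 3. In SU-DHL6 the treated libraries of SMC2/SMC4 lie between 0.469 and 0.514, below all other libraries, and those of NCAPH/SMC4 lie between 0.176 and 0.237.

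The meiotic-type cohesin gene STAG3 separated the lines by more than any of the 10 subunits did. STAG3 takes the place of STAG1 and STAG2 in germ cells. It had 9.62, 6.99 and 6.26 CPM in treated OCI-LY3, against 8.84, 8.415 and 8.29 CPM in untreated OCI-LY3, and 131, 101 and 113 CPM in treated SU-DHL6, against 194, 215 and 222 CPM in untreated SU-DHL6. All SU-DHL6 libraries lay above all OCI-LY3 libraries. STAG3 fell by 0.87 ± 0.13 in SU-DHL6 (edgeR adjusted p = 0.000114) and was not called in OCI-LY3, and the untreated lines differed by -4.63 ± 0.16, OCI-LY3 minus SU-DHL6 (adjusted p = 4.62e-12). Its FPKM was 0.762 to 1.27 times that of STAG2 in treated SU-DHL6, and 1.41 to 2.26 times in untreated SU-DHL6, a ratio chosen after its values were seen. STAG3 shares 18.7% of its exon bases with PVRIG and 13.6% with CASTOR3 and has near-identical pseudogene copies, so its level is uncertain.

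**Figure D4:**
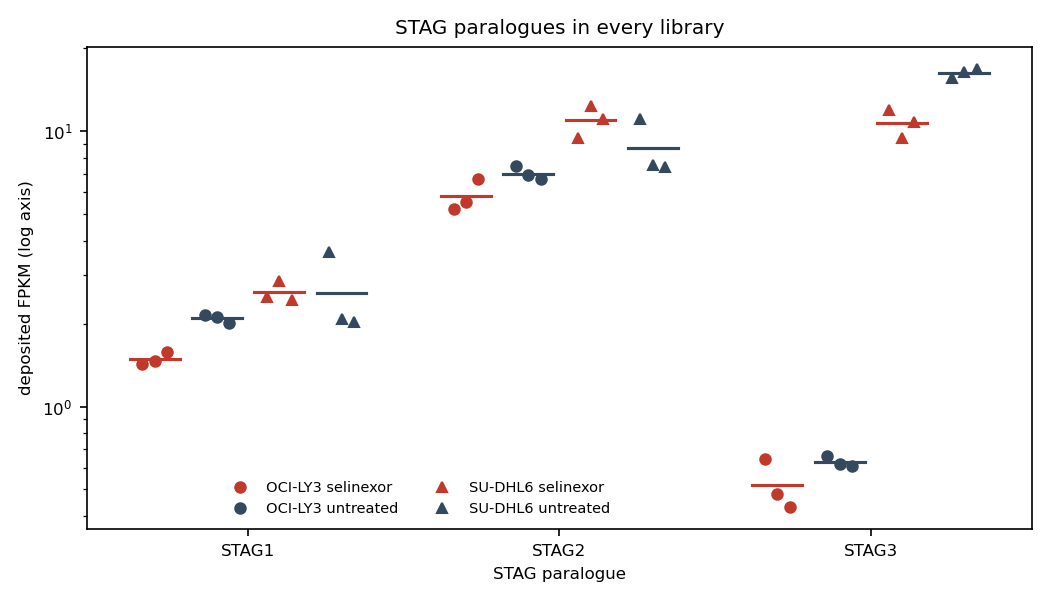
Deposited FPKM of STAG1, STAG2 and STAG3 in every library, on a log axis, with treated (red) left of untreated (dark) libraries; circles are OCI-LY3, triangles are SU-DHL6 and bars are means of 3. STAG3 lies between 9.43 and 16.8 FPKM in SU-DHL6 and between 0.431 and 0.660 FPKM in OCI-LY3.

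The other genes of these pathways were counted by list. Of 38 such genes, 36 were tested. In OCI-LY3, 22 fell, 3 rose and 11 were not called, where 22.2% of all tested genes were called lower and 22.2% higher. In SU-DHL6, 21 fell, 4 rose and 11 were not called, where 22.8% were called lower and 20.4% higher. All 3 condensin II subunits fell in both lines: NCAPG2 fell by 1.70 ± 0.13 in OCI-LY3 and fell by 1.96 ± 0.13 in SU-DHL6, NCAPD3 fell by 1.17 ± 0.11 in OCI-LY3 and fell by 1.58 ± 0.11 in SU-DHL6, and NCAPH2 fell by 0.66 ± 0.11 in OCI-LY3 and fell by 2.10 ± 0.11 in SU-DHL6. Every one of these was called by edgeR (the highest adjusted p was 0.000223, for NCAPH2 in OCI-LY3). The median of the 3 was -1.17 in OCI-LY3 and -1.96 in SU-DHL6.

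Of 4 genes of cohesin release and maintenance, 3 fell in OCI-LY3 and 1 in SU-DHL6, where 22.2% and 22.8% of all tested genes were called lower. CDCA5, which encodes sororin, the protector of replicated cohesin, averaged 49.3 ± 2.91 CPM in treated and 160 ± 9.61 CPM in untreated OCI-LY3, and 23.9 ± 1.24 CPM in treated and 254 ± 9.57 CPM in untreated SU-DHL6 (SD, n = 3 libraries each). Its log2 fold change was -1.70 ± 0.09 in OCI-LY3 (edgeR adjusted p = 7.50e-09) and -3.41 ± 0.10 in SU-DHL6 (adjusted p = 1.10e-11). PDS5B, a regulatory subunit that binds the ring, fell by 0.86 ± 0.14 in OCI-LY3. It stood at -0.03 ± 0.13 in SU-DHL6, not called, and at -0.58 and called with offsets for GC content and length. WAPL was not called in either line, but these offsets gave 0.29 in OCI-LY3 and -0.47 in SU-DHL6, both called. With total counts WAPL stood at 0.33 in SU-DHL6, called.

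Of 4 genes of cohesin protection and cleavage, 4 fell in OCI-LY3 and 3 in SU-DHL6, where 22.2% and 22.8% of all tested genes were called lower. ESPL1, the separase that cuts RAD21, fell by 2.11 ± 0.10 in OCI-LY3 and fell by 2.44 ± 0.10 in SU-DHL6. SGO1, a guardian of centromeric cohesion, fell by 1.02 ± 0.15 in OCI-LY3 and fell by 0.96 ± 0.15 in SU-DHL6. Its relative SGO2 fell by 1.96 ± 0.19 in OCI-LY3 and was not called in SU-DHL6, at 0.12 ± 0.18, or at -0.12 with offsets for GC content and length.

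Of 3 genes of cohesin acetylation, 1 fell in OCI-LY3, where 22.2% of all tested genes were called lower. In SU-DHL6, 1 rose and 1 fell, where 20.4% were called higher and 22.8% lower. ESCO2, the acetyltransferase that acts on SMC3 in S phase, fell by 2.34 ± 0.28 in OCI-LY3 and fell by 2.57 ± 0.28 in SU-DHL6. ESCO1, the acetyltransferase that acts outside S phase, rose by 1.18 ± 0.19 in SU-DHL6 (edgeR adjusted p = 0.000189) and was not called in OCI-LY3 (-0.24 ± 0.19, or -0.04 with offsets for GC content and length).

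Of 3 genes of cohesin loading and CTCF, 2 fell in OCI-LY3, where 22.2% of all tested genes were called lower. In SU-DHL6, 1 rose and 1 fell, where 20.4% were called higher and 22.8% lower. NIPBL, the cohesin loader, averaged 31.8 ± 3.73 CPM in treated and 45.5 ± 1.56 CPM in untreated OCI-LY3, and 95.2 ± 16.4 CPM in treated and 40.0 ± 11.5 CPM in untreated SU-DHL6. It fell by 0.52 ± 0.18 in OCI-LY3 (edgeR adjusted p = 0.0295) and rose by 1.25 ± 0.18 in SU-DHL6 (adjusted p = 6.62e-05). With offsets for GC content and length the OCI-LY3 call was lost (-0.27, edgeR adjusted p = 0.0513) and the SU-DHL6 rise was 0.76, still called. CTCF, the factor that halts cohesin at loop anchors, fell by 0.32 ± 0.08 in OCI-LY3 and fell by 0.63 ± 0.08 in SU-DHL6, where total counts gave -0.36, still called. With offsets for GC content and length CTCF stood at -0.25 in OCI-LY3 and -0.79 in SU-DHL6, both called.

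In the SMC5/6 complex, which acts in DNA repair, 2 of 9 genes rose and 2 fell in OCI-LY3, where 44.4% of all tested genes were called in either direction, and 2 rose and 4 fell in SU-DHL6, where 43.2% were. SMC6 fell by 0.97 ± 0.14 in OCI-LY3 and rose by 0.47 ± 0.14 in SU-DHL6, and SMC5 rose by 0.73 ± 0.13 in SU-DHL6. Both SU-DHL6 rises lost their call with offsets for GC content and length, at 0.13 for SMC6 and 0.18 for SMC5. NSMCE1, a ubiquitin ligase subunit, rose by 0.66 ± 0.13 in OCI-LY3 and fell by 0.58 ± 0.13 in SU-DHL6 (edgeR adjusted p = 0.00243), and the SU-DHL6 call was lost with the offsets (-0.21) and with total counts (-0.32). SLF1, a factor that recruits the complex to damage, fell by 1.74 ± 0.25 in OCI-LY3 and fell by 1.18 ± 0.23 in SU-DHL6. SLF2 rose by 0.48 ± 0.13 in OCI-LY3, a call lost with total counts (0.37, edgeR adjusted p = 0.0513), and stood at 0.02 ± 0.13 in SU-DHL6, not called, or at -0.33 and called with the offsets. NSMCE4A was not called in OCI-LY3 (-0.10 ± 0.12) and fell by 0.75 ± 0.12 in SU-DHL6, where total counts gave -0.48, still called.

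Of 8 genes that act with condensin in mitotic chromosome assembly, 7 fell in each line, where 22.2% (OCI-LY3) and 22.8% (SU-DHL6) of all tested genes were called lower. TOP2A, the topoisomerase that untangles sister chromatids, fell by 2.02 ± 0.14 in OCI-LY3 and fell by 1.29 ± 0.14 in SU-DHL6. CDK1, the kinase that activates condensin, fell by 1.65 ± 0.12 in OCI-LY3 and fell by 1.78 ± 0.12 in SU-DHL6. AURKB, the kinase of the chromosomal passenger complex, fell by 2.13 ± 0.18 in OCI-LY3 and fell by 2.38 ± 0.18 in SU-DHL6. MCPH1, an inhibitor of condensin II, was the exception: it rose by 0.34 ± 0.13 in OCI-LY3 (edgeR adjusted p = 0.0470), a call lost with total counts (0.22), and was not called in SU-DHL6 (0.08 ± 0.12). The list's median was -1.61 in OCI-LY3 and -1.27 in SU-DHL6. How far a smaller share of cycling cells contributes to the subunits' values was not tested.

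**Figure D5:**
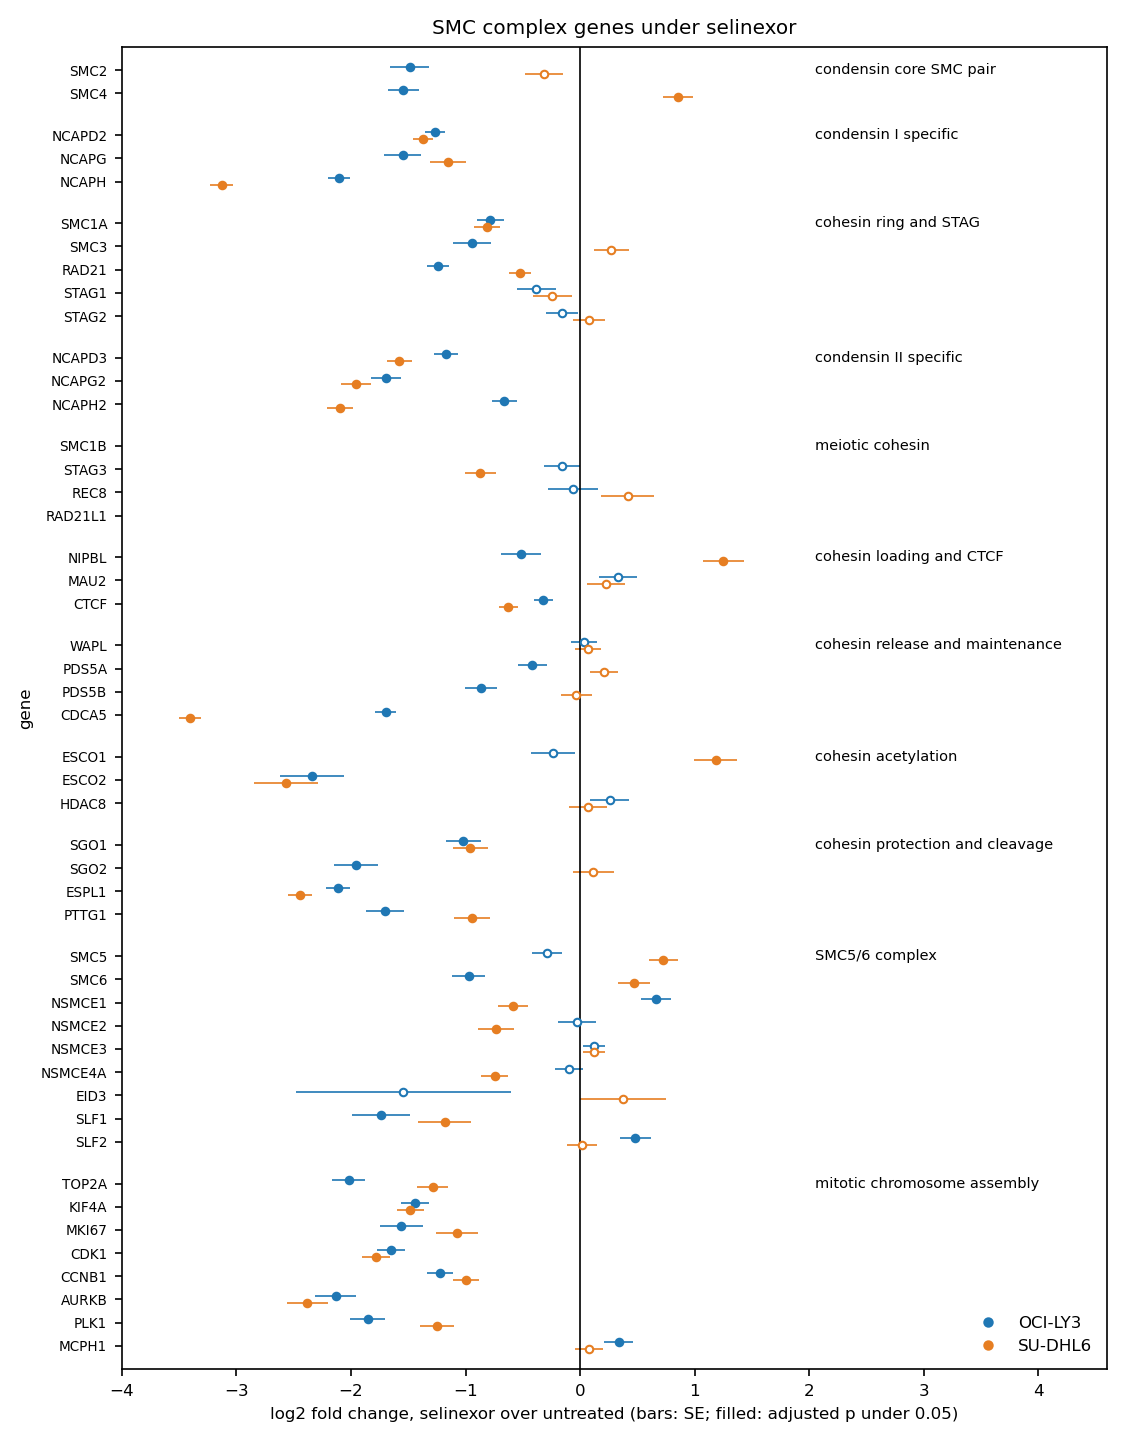
Log2 fold change, selinexor over untreated, of the 10 subunits and the other SMC complex genes, grouped by role, in OCI-LY3 and SU-DHL6; bars are SE and filled points have an adjusted p under 0.05. Genes without points did not pass the filter; CDCA5 lies furthest left in SU-DHL6 at -3.41, and NIPBL, ESCO1, SMC5 and SMC6 are the called genes right of 0 in SU-DHL6 besides SMC4.

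For each subunit, the tested gene with the most similar profile was found among 9250 genes by the root mean square difference of log2 CPM over the 12 libraries, each gene centred on its own mean. The nearest of 9250 genes lies below the median distance by its selection, so the medians give a scale and no test. The nearest gene to NCAPG was WDHD1, a replication factor, at 0.12, where the median over all candidates was 0.87. NCAPD2 was nearest to the ubiquitin-conjugating enzyme UBE2T (0.12, median 0.84), SMC2 to the microtubule-binding CKAP5 (0.15, median 0.76) and NCAPH to WDR76 (0.17, median 1.42). WDR76 averaged 17.3 CPM in treated and 82.2 CPM in untreated OCI-LY3, and 15.6 CPM in treated and 116 CPM in untreated SU-DHL6.

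SMC4 was nearest to BAZ1A, a chromatin remodelling subunit, at 0.17 with a median of 0.96. BAZ1A averaged 21.5 CPM in treated and 55.7 CPM in untreated OCI-LY3, and 81.1 CPM in treated and 49.5 CPM in untreated SU-DHL6. It was picked for its likeness to SMC4 over these same libraries. Its opposite directions in the lines follow from that choice and are no separate observation. Among cohesin genes, SMC3 was nearest to RPRD1A (0.13), RAD21 to DDAH1 (0.12), SMC1A to USP30 (0.17), STAG1 to FEM1B (0.12) and STAG2 to the Mediator subunit MED1 (0.08). These profiles share the same 12 libraries and their depth and base composition, and the likeness is a description.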

How the data were processed

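The authors deposited 1 table with a read count and an FPKM value per gene and library, per the file headers. All its columns of values were mapped by name (0 unmapped). Per the labels' protocols, 1.3 µg of RNA entered each mRNA library. How reads were aligned and counted, and whether strand was used, is not given in the sources used here. GRCm38 and mm10, both mouse, are the builds in the submitters' processing notes, but the identifiers are human Ensembl ones: 58039 were found in GENCODE 29 (GRCh38), and all 10 subunits had identical coordinates there.

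The deposited counts entered edgeR 4.0.16 under R 4.3.3 (filterByExpr, trimmed mean of M values factors, robust quasi-likelihood F test, a coefficient per group over all 12 libraries, Benjamini-Hochberg adjustment, threshold 0.05). Standard errors are the log2 fold change over the root of F. Deposited FPKM values served only for levels between genes and ratios within a library. The script was tested on simulated data: 99.5% of 200 changed genes among 16474 were called in SU-DHL6, and 12 unchanged ones. Promoters came from the RefSeq table. GC offsets used lowess curves (span 0.3) fitted on the better-expressed of the 16415 tested genes with GC content and length from GENCODE 29.

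Members, lists and motifs were chosen with earlier results of these data known. Named genes were the 10 subunits, up to 2 genes per direction and line of each other list with the smallest adjusted p, partners in ratios, and the nearest gene to each subunit. Values of such genes in the other line, and genes that share exons with a subunit, were added after seeing the data. So were some pathway genes that were called only with offsets or total counts. Alternatives were DESeq2 1.42.0, limma-voom (limma 3.58.1), other size factors, filters and thresholds, each line alone, GC and length offsets, leaving out each library, and a block for the replicate number. Offsets and total counts for the other pathway genes were added after seeing the data. Same-numbered libraries of a line had deviations that correlated at -0.17 to 0.02 over 6 pairs. No strong shared effect of the number was thus seen, and the labels do not say whether numbers pair libraries. Replicates differed by 11.5 to 29.6 in chi-square per gene, where sampling noise alone gives about 1, so none was a duplicate. Counts limit precision by counting error and by the spread between 3 libraries per group. One marker gene is not reported here.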

Additional observations from a re-analysis of the deposited data

Results flagged for a closer look

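In 22 genes, 5 of the 10 subunits and 17 of the 36 other tested genes, the selinexor response differed between the lines in a test of the difference itself, SU-DHL6 minus OCI-LY3, by edgeR's quasi-likelihood test with an adjusted p under 0.05. The same held for 36.9% of all tested genes. All values are differences of log2 fold changes, and the difference in dose or time between the lines, if any, cannot be told apart from the line. Among the subunits, SMC4 differed by 2.40, SMC3 by 1.22, SMC2 by 1.17 and RAD21 by 0.71, and NCAPH by -1.02. Of the condensin II subunits, NCAPD3 differed by -0.41 and NCAPH2 by -1.43.

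Among cohesin regulators and relatives, positive differences were found for SGO2 (2.07), NIPBL (1.77), ESCO1 (1.42), PDS5B (0.83), PTTG1 (0.76) and PDS5A (0.63), and negative ones for CDCA5 (-1.71) and STAG3 (-0.71). In the SMC5/6 complex, SMC6 differed by 1.44 and SMC5 by 1.01, while NSMCE1 differed by -1.25, NSMCE2 by -0.70 and NSMCE4A by -0.65. TOP2A and PLK1, which act in mitotic chromosome assembly, differed by 0.73 and 0.60, both having fallen less in SU-DHL6. Offsets for GC content and length gave 1.03 for NIPBL, 0.93 for ESCO1, 0.89 for SMC6, -0.72 for NSMCE1 and 1.01 for PLK1, all still called. With these offsets the differences of NCAPD3 (-0.22), PDS5A (0.13), PDS5B (0.02), SMC5 (0.22) and TOP2A (0.13) were no longer called. With total counts those of NCAPD3 (-0.03), STAG3 (-0.33), NSMCE2 (-0.33) and NSMCE4A (-0.27) were not. Other differences became called only with the offsets: SLF2 (-1.01), WAPL (-0.76), CDK1 (-0.75), NSMCE3 (-0.66), CTCF (-0.54), NCAPG2 (-0.47), MCPH1 (-0.43) and REC8 (0.90). Total counts likewise added calls for MKI67 (0.87), REC8 (0.85), CCNB1 (0.61) and NSMCE3 (0.39).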

How the results depend on the processing

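In OCI-LY3 the counts of subunits called, 8 lower and 0 higher, held within 1.5 times under every alternative run. In SU-DHL6, total counts gave 2 higher, where 5451 of 16474 tested genes were called higher. GC and length offsets gave 8 lower, where 3465 were called lower. For the difference of responses, these offsets gave 2 lower, with or without the replicate block. Over all tested genes 3075 were then called lower, or 2916 with the block. Between untreated lines the 1 higher subunit became 0 at an adjusted p under 0.01 and with total counts, and 2 with relative log expression factors, no filter, DESeq2, limma-voom and the offsets with or without the block. Over all tested genes, 4734 were called higher at the stricter threshold and 5156 with total counts. The settings that gave 2 ran from 5583 with DESeq2 to 6061 of 33388 without the filter. Between treated lines total counts gave 0 higher, where 4317 of all tested genes were called higher. The offsets gave 4 lower with or without the block, where 6100 were called lower, or 5994 with the block. Values that changed sign with the offsets (then with the block added) were, for selinexor, STAG2 in OCI-LY3 at 0.036 (0.035), SMC3 in SU-DHL6 at -0.10 (-0.10) and STAG2 in SU-DHL6 at -0.23 (-0.23). For the difference they were NCAPD2 at 0.16 (0.16), NCAPG at -0.25 (-0.24), STAG1 at -0.52 (-0.52) and STAG2 at -0.26 (-0.26). For treated lines they were SMC2 at 0.012 (0.013), NCAPG at 0.064 (0.067), STAG1 at 0.30 (0.30) and STAG2 at 0.068 (0.068). Total counts turned STAG1 in SU-DHL6 to 0.011, the differences of NCAPD2 to 0.27 and SMC1A to 0.35, and NCAPD2 between treated lines to -0.10; upper-quartile factors turned the SMC1A difference to 0.019. The FPKM change of SMC2 in SU-DHL6, -0.06, became 0.011 when FPKM values were scaled to their sum. The cause was not tested. The replicate block alone ended 1 subunit call, SMC3 between untreated lines (-0.38, edgeR adjusted p = 0.0662). Leaving out each library gave 1 to 2 higher in SU-DHL6, 4 to 6 higher for the difference, 0 to 2 higher between untreated lines, and an SMC2 to SMC4 log2 difference of -0.043 to 0.15 in OCI-LY3. It also gave -0.37 to 0.040 for STAG1 and -0.024 to 0.24 for STAG2 in SU-DHL6, -0.11 to 0.10 for the SMC1A difference, and, between untreated lines, -0.028 to 0.22 for SMC4, -0.35 to 0.028 for NCAPG and -0.35 to 0.065 for STAG1. Low counts limit ESCO2, at 33 to 66 counts in treated libraries. They also limit SLF1, at 28 to 39 counts in treated OCI-LY3, and REC8, at 29 to 36 counts in untreated SU-DHL6.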
